A study of Mus musculus with 14 samples.

Results

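The 10 genes described here are expressed in the loop of Henle and the distal tubule of the kidney: Umod, Slc12a1, Slc12a3, Kcnj1, Casr, Cldn16, Kcnk1, Pvalb, Trpm6 and Calb1. They were chosen by gene symbol from 56980 gene IDs with counts, with earlier results of these libraries known. Their differences between PT-D and T-ND are therefore given as a description without a p-value. The data are bulk RNA-seq of whole left kidneys of female wild-type CD-1 mice, an outbred stock, collected at 18 weeks of age, with 1 library per mouse. Term mice without diabetes (T-ND, n = 4) and preterm mice without diabetes (PT-ND, n = 3) received no streptozotocin (STZ), a toxin of the insulin-producing beta cell. Term diabetic (T-D, n = 4) and preterm diabetic (PT-D, n = 3) mice received STZ as young adults. Preterm pups were delivered by Caesarean section and raised by foster mothers given acepromazine, a sedative, while term mice stayed with their own mothers, and these conditions cannot be told apart from preterm birth. Some PT-D mice of the study needed another course of STZ, and which ones is not given in the sources used here. All groups received cationic ferritin before the kidneys were taken.

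The thick ascending limb of the loop of Henle reabsorbs salt without water and dilutes the tubular fluid, and the gradient it builds allows the kidney to concentrate urine. Salt enters its cells through the cotransporter NKCC2, potassium returns to the lumen through the channel ROMK, and the resulting voltage drives calcium and magnesium between the cells. The distal convoluted tubule that follows takes up salt through the thiazide-sensitive cotransporter NCC and magnesium through TRPM6, and the connecting tubule after it moves calcium through the cell with the help of calbindin.

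The thick ascending limb is represented by Umod (uromodulin, the most abundant protein of normal urine), Slc12a1 (NKCC2), Kcnj1 (ROMK), Casr (the calcium-sensing receptor) and Cldn16 (a tight junction protein of the path for magnesium and calcium). Kcnk1 encodes TWIK-1, a potassium channel with paired pore domains that is found in several tubule segments. Slc12a3 (NCC), Trpm6 (the magnesium channel) and Pvalb (parvalbumin, a calcium buffer of the early distal convoluted tubule) mark the distal convoluted tubule, and Calb1 (calbindin) its later part and the connecting tubule. In the GRCm39 genome, Umod lies on chromosome 7 from 119061934 to 119078505, Slc12a1 on chromosome 2 from 124994425 to 125071922, Kcnj1 on chromosome 9 from 32283789 to 32310493, Casr on chromosome 16 from 36310949 to 36382503 and Cldn16 on the same chromosome from 26281885 to 26301515. Kcnk1 lies on chromosome 8 from 126721842 to 126757440, Slc12a3 on chromosome 8 from 95055829 to 95094170, Trpm6 on chromosome 19 from 18727089 to 18869875, Pvalb on chromosome 15 from 78075314 to 78091149 and Calb1 on chromosome 4 from 15881155 to 15908085. The counting ignored strand, and annotated genes of the other strand share 539 exon bases with Umod, 299 with Casr and 179 with Kcnk1, so that reads in those stretches cannot be told apart.

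The sequences before the start sites of 4 of these genes are shown because Kcnk1, Umod and Casr had the lowest levels in PT-D relative to T-ND while Slc12a3 did not follow them. Each run holds the 250 bases before the start in RefSeq's GRCm38.p6 annotation, an older build than that of the counts, and 9 of the 10 genes had such an entry. Capitals mark matches, on either strand, to one of 2 motifs searched. For nuclear receptors, the half-site with the letters AAGGTCA was searched. The other, which is the core of the TATA box, was TATAAA. Matches to these motifs do not overlap in the sequences shown.
Kcnk1, chr8:125994852-125995101, plus strand: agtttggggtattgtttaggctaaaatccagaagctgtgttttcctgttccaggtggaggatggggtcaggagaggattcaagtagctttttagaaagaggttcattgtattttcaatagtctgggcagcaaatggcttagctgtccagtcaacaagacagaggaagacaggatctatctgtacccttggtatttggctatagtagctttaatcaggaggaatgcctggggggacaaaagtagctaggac
Umod, chr7:119479263-119479512, minus strand: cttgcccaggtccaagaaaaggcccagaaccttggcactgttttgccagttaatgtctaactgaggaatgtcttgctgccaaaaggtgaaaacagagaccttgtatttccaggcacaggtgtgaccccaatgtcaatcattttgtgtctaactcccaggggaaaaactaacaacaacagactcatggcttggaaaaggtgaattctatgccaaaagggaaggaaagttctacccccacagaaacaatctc
Casr, chr16:36562135-36562384, minus strand: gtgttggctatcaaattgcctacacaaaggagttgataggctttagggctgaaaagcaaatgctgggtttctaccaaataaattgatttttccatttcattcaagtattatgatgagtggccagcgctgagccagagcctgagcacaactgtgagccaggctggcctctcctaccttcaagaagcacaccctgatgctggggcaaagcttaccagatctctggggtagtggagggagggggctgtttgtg
Slc12a3, chr8:94328958-94329207, plus strand: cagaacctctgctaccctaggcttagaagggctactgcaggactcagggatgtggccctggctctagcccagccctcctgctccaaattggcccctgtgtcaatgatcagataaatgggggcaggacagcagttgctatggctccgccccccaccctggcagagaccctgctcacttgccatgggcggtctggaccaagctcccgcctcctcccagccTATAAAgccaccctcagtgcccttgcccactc
In Slc12a3 a TATAAA match began 32 bases before the start, and 12.3% of all 32536 promoter sequences of this length held one. AAGGTCA, found in 4.09% of them, was not matched in the windows of the 9 genes, and no other match was found in them. A match is a description of these letters and was not tested as a binding site.

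Between 16697246 and 28673176 reads per library were counted on genes, and normalized counts below are scaled by edgeR's TMM factors. The genes were measured with at least 121 reads in every library, the fewest being those of Casr in PT-D replicate 3. Relative to the length of the canonical transcript, Umod was by far the highest in T-ND, with 17055 ± 2891 normalized counts per kilobase (SD, n = 4). Slc12a1 followed with 3330 ± 938, Calb1 with 2465 ± 1081 and Slc12a3 with 1944 ± 831, neighbours in this order that did not differ beyond their spread. Kcnj1 had 1295 ± 265 and Kcnk1 1002 ± 253 per kilobase, which also lay within their spread of each other, and Pvalb had 747 ± 48.6. The lowest levels per kilobase were those of Cldn16 (260 ± 39.4), Casr (121 ± 29.8) and Trpm6 (38.9 ± 17.2). Together the 10 genes took 0.458% ± 0.0288 of all counts in T-ND, 0.307% ± 0.0528 in T-D, 0.336% ± 0.0578 in PT-ND (n = 3) and 0.304% ± 0.137 in PT-D (n = 3).

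**Figure D1:**
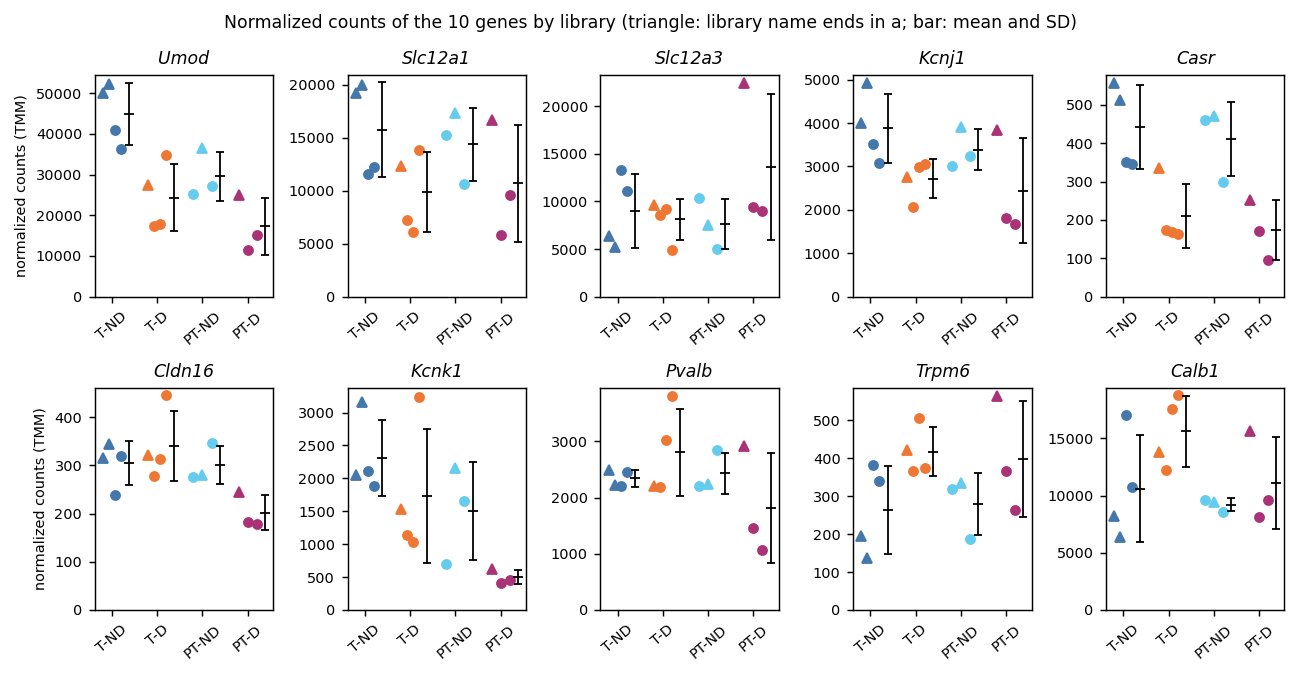
Normalized counts of each gene (vertical axes from 0) in the 14 libraries by group, with the mean and SD beside each group and triangles for libraries whose name ends in a. The 3 PT-D libraries lie at 409 to 615 for Kcnk1, below all others, and PT-D replicate 1 stands above all others for Slc12a3 at 22462.

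Libraries of the same group differed along these genes, and this bears on every comparison. The names of 5 libraries end in the letter a, namely PT-D replicate 1, PT-ND replicate 2, T-D replicate 1 and replicates 1 and 2 of T-ND, and the labels do not say what the letter means. In a fit of the 4 groups with this letter as a term, chosen after the data were seen, edgeR called 0 of 22339 genes (0%), with 1244 at an unadjusted p under 0.05 and 26 called by DESeq2. None of the 10 genes was called by either tool, and 4 had an unadjusted p under 0.05: Casr was 0.71 higher on the log2 scale in libraries with the letter, Slc12a1 0.68, Umod 0.50 and Kcnj1 0.48. Within T-ND the 2 libraries with the letter had 19284 and 19955 normalized counts of Slc12a1 against 11600 and 12293 in the others, and 6353 and 5201 of Slc12a3 against 13287 and 11139. Umod, Kcnj1 and Casr were also higher in those 2 libraries than in the other T-ND libraries, whereas Cldn16 overlapped between them. T-D replicate 4 had 3233 normalized counts of Kcnk1 where the other T-D libraries had 1034 to 1528, and the fewest genes with a count (19589) of all libraries.

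PT-D was compared with T-ND for the combined exposure to preterm birth and STZ, and here the genes of the thick ascending limb had lower values while Slc12a3 and Trpm6 of the distal convoluted tubule had higher means and Pvalb a lower one. Kcnk1, Umod and Casr were lower in every PT-D than in every T-ND library, with PT-D at 0.213, 0.383 and 0.391 of the T-ND level in the fit. Of 22310 genes, 323 (1.45%) were differentially expressed genes (DEGs), for which edgeR's quasi-likelihood test gave an adjusted p under 0.05 and the log2 fold change (log2FC) was beyond 1 in either direction. Among the 10 genes, Kcnk1 and Umod met this definition in the main fit, and DESeq2 called Casr as well. Since this contrast was known when the genes were chosen, nothing is read from that count.

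Kcnk1 had 2058, 3166, 2116 and 1885 normalized counts in the T-ND libraries, 1528, 1144, 1034 and 3233 in T-D, 700, 2158 and 1661 in PT-ND, and 615, 409 and 461 in PT-D. Every PT-D library was below every library of the other groups, and PT-ND replicate 1 came closest. The mean fell from 2306 ± 581 (SD, n = 4) in T-ND to 495 ± 107 (n = 3) in PT-D, at a log2FC of -2.23 with a standard error (SE) of 0.23. Among libraries whose name ends in a, the log2 ratio of the means was -2.09 (1 against 2 libraries), and among the others -2.20 (2 against 2).

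Umod had 50136, 52304, 40908 and 36208 normalized counts in T-ND, 27466, 17419, 17841 and 34754 in T-D, 25114, 36513 and 27140 in PT-ND, and 24997, 11486 and 15260 in PT-D. T-ND was highest, all PT-D libraries were below all T-ND and PT-ND libraries, and T-D overlapped with PT-D. T-ND averaged 44889 ± 7610 and PT-D 17248 ± 6971, a log2FC of -1.39 (SE 0.26). The definition of a DEG was no longer met without any one of T-ND replicates 1, 2 and 4 and PT-D replicates 2 and 3, with log2FCs of -1.33, -1.31, -1.47, -1.17 and -1.30, nor with a replicate block (-1.54).

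Casr had 556, 513, 352 and 345 normalized counts in T-ND, 335, 174, 168 and 162 in T-D, 460, 472 and 299 in PT-ND, and 253, 172 and 97 in PT-D. Both diabetic groups were lower than T-ND without overlap, and T-D and PT-D overlapped with each other. Between PT-D and T-ND the log2FC was -1.35 (SE 0.32). The definition of a DEG was not met in the main fit. Casr met it in 6 of 7 other settings that kept all libraries, DESeq2 among them, and in 2 of 7 fits without 1 library.

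The other thick ascending limb genes were lower in PT-D by less. Slc12a1 had 19284, 19955, 11600 and 12293 normalized counts in T-ND and 16725, 5824 and 9604 in PT-D, and the groups overlapped because PT-D replicate 1 was above 2 of the T-ND libraries. Kcnj1 had 3994, 4932, 3528 and 3078 in T-ND and 3848, 1810 and 1673 in PT-D, again with overlap by PT-D replicate 1 only. Cldn16 had 316, 344, 238 and 320 in T-ND and 244, 183 and 178 in PT-D, where PT-D replicate 1 was just above T-ND replicate 3. Their log2FCs were -0.56 (SE 0.34), -0.67 (0.29) and -0.60 (0.19). Without PT-D replicate 1, Kcnj1 met the definition of a DEG at a log2FC of -1.17.

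The distal convoluted and connecting tubule genes overlapped between PT-D and T-ND. Slc12a3 had 6353, 5201, 13287 and 11139 normalized counts in T-ND and 22462, 9368 and 8990 in PT-D, where PT-D replicate 1 was the highest of all 14 libraries. Its log2FC was 0.59 (SE 0.39). Within libraries whose name ends in a the log2 ratio of the means was 1.96, and within the others -0.41, so that the direction depended on the libraries. The same held for Trpm6 (1.77 and -0.20), Pvalb (0.31 and -0.88) and Calb1 (1.10 and -0.65), while 6 of the 10 genes kept their direction. Trpm6 had 195, 136, 381 and 341 in T-ND and 565, 366 and 263 in PT-D, a log2FC of 0.59 (SE 0.36). Pvalb had 2500, 2223, 2206 and 2454 in T-ND and 2923, 1453 and 1073 in PT-D (log2FC -0.37), with PT-D replicate 1 above and the other PT-D libraries below all T-ND libraries. Calb1 had 8207, 6391, 17038 and 10779 in T-ND and 15668, 8079 and 9603 in PT-D (log2FC 0.06), and its direction turned without PT-D replicate 1 (-0.27) or without T-ND replicate 1 (-0.05) or 2 (-0.12).

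PT-D was compared with PT-ND for the effect of STZ in preterm mice, and the lower levels of Kcnk1 and Casr passed the test here. This comparison and the later ones share libraries with the one above, and the genes were chosen with results known, so that they are not independent evidence. Of 22303 genes, 1105 (4.95%) were DEGs, and of the 10 genes 2 were, both lower in PT-D. Kcnk1 was at 0.329 of the PT-ND level (log2FC -1.61, SE 0.34, edgeR adjusted p = 0.0142), and all 3 PT-D libraries were below all 3 PT-ND libraries. Casr was at 0.423 of the PT-ND level (log2FC -1.24, SE 0.32, adjusted p = 0.0283), with PT-ND at 299 to 472 normalized counts and PT-D at 97 to 253. These calls rested on few libraries. That of Kcnk1 was lost without PT-ND replicate 2 (log2FC -1.27, adjusted p = 0.0557) or 3 (-1.53, adjusted p = 0.0574), and that of Casr without PT-ND replicate 1 (-1.16) or 2 (-1.13) or without PT-D replicate 2 (-1.23) or 3 (-0.95).

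The other 8 genes were not called between PT-D and PT-ND. Umod had a log2FC of -0.78 (SE 0.27, edgeR adjusted p = 0.0818), and it was called without PT-D replicate 1 (-1.15, adjusted p = 0.0113). Cldn16 was at -0.58 (adjusted p = 0.0869), Kcnj1 at -0.47, Slc12a1 at -0.43 and Pvalb at -0.42. Single libraries moved these values, which ranged from -0.96 to -0.26 for Kcnj1, from -0.90 to -0.13 for Slc12a1 and from -0.95 to -0.15 for Pvalb with 1 library left out. The lowest value of each was that without PT-D replicate 1, where Kcnj1 had an adjusted p of 0.00870, Pvalb of 0.0145 and Slc12a1 of 0.0456, and the difference stayed under the fold of a DEG. Slc12a3 had 10311, 7491 and 5035 normalized counts in PT-ND against 22462, 9368 and 8990 in PT-D, a log2FC of 0.84 (SE 0.36, adjusted p = 0.146), which was 0.27 without PT-D replicate 1 and 1.11 without PT-ND replicate 1. Trpm6 was at 0.51 and Calb1 at 0.27, and both overlapped between the groups. The median of the 10 log2FCs was -0.45, beside 0.05 over all genes tested.

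**Figure D2:**
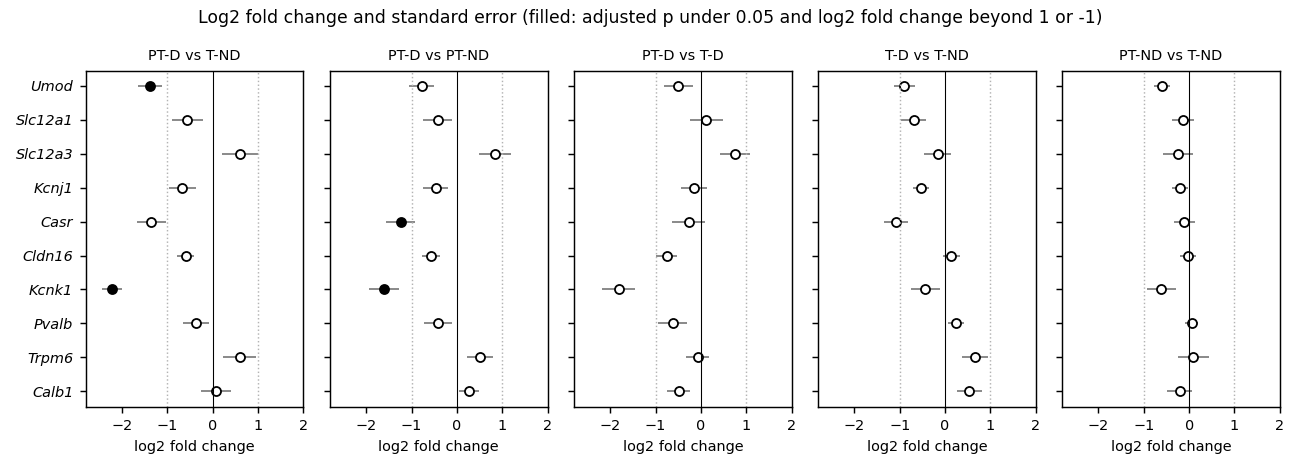
Log2FC (horizontal axes) of each gene in the 5 comparisons between pairs of groups, with standard errors as bars and filled points for genes that met the definition of a DEG. Kcnk1 was lowest in the 3 comparisons that include PT-D, from -1.61 to -2.23, and Casr was lowest between T-D and T-ND at -1.09.

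T-D was compared with T-ND for the effect of STZ in term mice, where Casr and Umod had the largest differences of the 10 genes without passing the test. Of 22275 genes, 15 (0.0673%) were DEGs. edgeR called 0 of the 10 genes, 5 had an unadjusted p under 0.05, and DESeq2 called 1, Casr. Casr was at 0.471 of the T-ND level, with a log2FC of -1.09 (SE 0.27, edgeR adjusted p = 0.172), and without T-D replicate 1 it was called by edgeR at -1.41 (adjusted p = 0.0464). Umod was at 0.536 of that level, -0.90 on the log2 scale (SE 0.24, adjusted p = 0.191), and all T-D libraries were below all T-ND libraries. Slc12a1 was at -0.69 and Kcnj1 at -0.53, with T-D libraries of 12300, 7249, 6122 and 13874 normalized counts for Slc12a1 and of 2747, 2066, 2991 and 3059 for Kcnj1. All T-D libraries were below all T-ND libraries for Kcnj1, whereas the groups overlapped for Slc12a1.

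Kcnk1 and the genes of the later segments had smaller or opposite differences between T-D and T-ND. Kcnk1 was at -0.43 (SE 0.32, edgeR adjusted p = 0.615), and T-D replicate 4 was the highest of all 14 libraries for this gene. Without that library the log2FC was -0.91, which also was not called. Trpm6 had 422, 367, 506 and 373 normalized counts in T-D (log2FC 0.65, SE 0.29), and Calb1 had 13843, 12202, 17586 and 18774 (0.54, SE 0.27). Both overlapped with T-ND, where replicates 1 and 2 were low. Cldn16 had 322, 278, 314 and 447, Pvalb 2210, 2187, 3034 and 3807, and Slc12a3 9645, 8579, 9242 and 4950 in T-D, with log2FCs of 0.14, 0.24 and -0.17.

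PT-D was compared with T-D for the effect of preterm birth among STZ-treated mice, and Kcnk1 had the largest difference. Of 22294 genes, 43 (0.193%) were DEGs. edgeR called 0 of the 10 genes, 3 had an unadjusted p under 0.05, and DESeq2 called 1, Kcnk1. Kcnk1 was at 0.285 of the T-D level, a log2FC of -1.81 (SE 0.37, edgeR adjusted p = 0.0664), without overlap between the groups. It was called by edgeR when T-D replicate 4 was left out (-1.32, adjusted p = 0.0264). Cldn16 was at -0.75 (SE 0.23, adjusted p = 0.101), and each PT-D library was below each T-D library. Slc12a3 was at 0.75 (SE 0.33, adjusted p = 0.210), with the T-D libraries reaching 9645, above the 2 lower PT-D libraries, and it was 0.16 without PT-D replicate 1. Umod was at -0.50, Pvalb at -0.63, Calb1 at -0.49 and Casr at -0.27, Kcnj1 at -0.15, Slc12a1 at 0.12 and Trpm6 at -0.07.

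PT-ND was compared with T-ND for preterm birth without STZ. Of 22254 genes, 18 (0.0809%) were DEGs. edgeR called 0 of the 10 genes, 1 had an unadjusted p under 0.05 (Umod), and DESeq2 called 0. Umod was at 0.659 of the T-ND level, with a log2FC of -0.60 (SE 0.18, edgeR adjusted p = 0.320), and only PT-ND replicate 2 reached the range of T-ND. Kcnk1 was at -0.61 (SE 0.32, adjusted p = 0.518). The other 8 genes lay between -0.24 for Slc12a3 and 0.09 for Trpm6, with Casr at -0.11 and Cldn16 at -0.02. Slc12a1 had 15247, 17309 and 10612 normalized counts in PT-ND, Kcnj1 3004, 3917 and 3232, Cldn16 275, 280 and 346, Pvalb 2204, 2239 and 2857, Trpm6 318, 335 and 187, and Calb1 9582, 9448 and 8602.

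Over all 14 libraries, the STZ effect common to both birth groups called 90 of 22339 genes (0.403%) and 1 of the 10 genes. Casr was at 0.452 of its level without STZ (log2FC -1.14, SE 0.22, edgeR adjusted p = 0.0337). That call was lost without any one of 8 libraries, namely replicates 2 and 3 of T-D and of PT-D and replicates 1 and 2 of T-ND and of PT-ND, with log2FCs from -1.03 to -1.13. Umod was at -0.84 (SE 0.20, adjusted p = 0.0583) and Kcnk1 at -0.92 (SE 0.31, adjusted p = 0.164). Kcnk1 was called without T-D replicate 4 (-1.22, adjusted p = 0.0264). The effect of preterm birth common to both STZ states called 6 of 22339 genes (0.0269%). edgeR called 0 of the 10 genes, 3 had an unadjusted p under 0.05, and DESeq2 called 1, Kcnk1, which was at -1.19 by edgeR (SE 0.32, adjusted p = 0.406).

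The interaction asked whether the STZ effect differed between preterm and term mice, and 993 of 22339 genes (4.45%) were called. edgeR called 0 of the 10 genes, 2 had an unadjusted p under 0.05 (Kcnk1 and Cldn16), and DESeq2 called 0. The interaction term was -1.19 for Kcnk1 (SE 0.54, edgeR adjusted p = 0.185), -0.73 for Cldn16 (0.28, adjusted p = 0.117) and 0.99 for Slc12a3 (0.53, adjusted p = 0.268). For Casr it was -0.17 (SE 0.45) and for Umod 0.10 (0.39). A difference between the birth groups in the STZ effect was thus not detected for any of the 10 genes.

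Ratios of counts within a library do not depend on the scaling between libraries, and they are given as a description. The ratio of Umod to Slc12a1 was 2.60, 2.62, 3.53 and 2.95 in T-ND, 2.23, 2.40, 2.91 and 2.50 in T-D, 1.65, 2.11 and 2.56 in PT-ND and 1.49, 1.97 and 1.59 in PT-D. Umod was thus lower relative to Slc12a1 in all PT-D than in all term libraries. The ratio of Kcnk1 to Slc12a1 was 0.107, 0.159, 0.182 and 0.153 in T-ND, 0.124, 0.158, 0.169 and 0.233 in T-D, 0.0459, 0.125 and 0.157 in PT-ND and 0.0368, 0.0703 and 0.048 in PT-D. PT-ND replicate 1 lay among the PT-D libraries, and both term groups were above them.

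The ratio of Slc12a3 to Slc12a1 sets the distal convoluted tubule against the thick ascending limb. It was 0.329, 0.261, 1.15 and 0.906 in T-ND, 0.784, 1.18, 1.51 and 0.357 in T-D, 0.676, 0.433 and 0.475 in PT-ND and 1.34, 1.61 and 0.936 in PT-D. The PT-D and PT-ND libraries did not overlap, whereas both term groups spread over most of the range. The lowest values of the term groups were those of T-ND replicates 1 and 2 and T-D replicate 4.

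**Figure D3:**
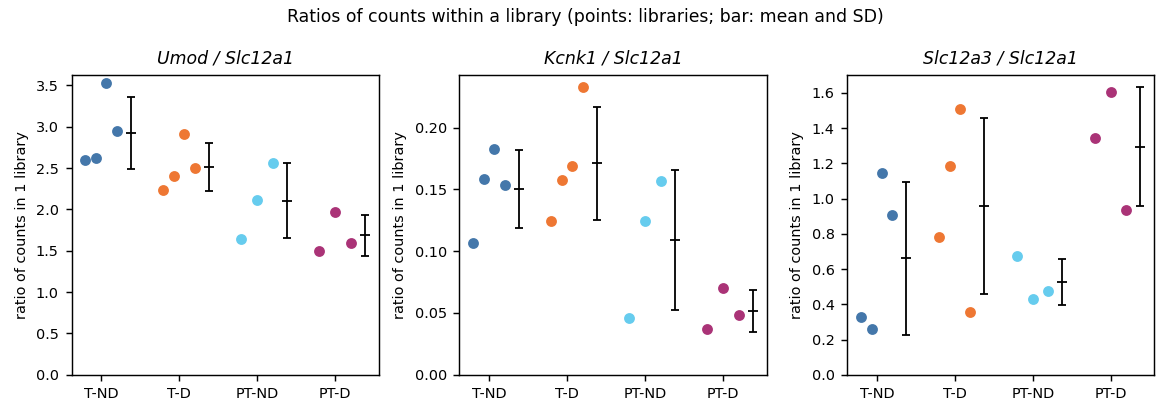
Ratios of the counts of 2 genes within each library (vertical axes from 0, no unit) by group, with the mean and SD beside the libraries. Umod relative to Slc12a1 was 2.92 ± 0.432 in T-ND (SD, n = 4) and 1.69 ± 0.253 in PT-D (n = 3), and Slc12a3 relative to Slc12a1 was 0.528 ± 0.13 in PT-ND and 1.3 ± 0.339 in PT-D.

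Other genes of the thick ascending limb were lower in PT-D as well. Between PT-D and PT-ND, 4.95% of all genes were DEGs. Of 14 listed genes, 12 were lower than in PT-ND, 5 of them DEGs, and no gene was called higher. Their median log2FC was -1.0, beside 0.05 over all genes. The claudins Cldn19, the partner of Cldn16 in the tight junction, and Cldn10, the sodium-permeable claudin of this segment, were at -1.86 (edgeR adjusted p = 0.00111) and -1.55 (adjusted p = 0.00214). Cldn19 had 506, 688 and 730 normalized counts in PT-ND and 192, 177 and 161 in PT-D. Wfdc15b, a secreted protein of the whey acidic protein family, was at -1.36 (adjusted p = 0.0171), and Ppp1r1a, an inhibitor of protein phosphatase, at -1.04 (adjusted p = 0.0228). Cldn14, a claudin that limits calcium passage, was at -1.48 (adjusted p = 0.0465). Its counts were low, with means of 45.1 ± 11.1 in PT-ND, 16.1 ± 4.29 in PT-D and 19.6 ± 15.5 in T-ND. The PT-D libraries lay within the range of T-ND for Cldn14.

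The lists of distal nephron genes were chosen with earlier results known, so their values between PT-D and T-ND, including adjusted p, are a description. In the fit with the letter a as a term, 13 of the 14 thick ascending limb genes were higher in libraries with it (median 0.48). edgeR called 0 of them, and 8 had an unadjusted p under 0.05. Against T-ND, 12 of these 14 genes were lower in PT-D, with a median of -1.16 beside 0.03 over all genes. Of them 1, Cldn19, was a DEG (log2FC -1.86, edgeR adjusted p = 0.0344), where 1.45% of all genes were. DESeq2 called 8 of them. Next by adjusted p was Bsnd (barttin, the subunit of the basolateral chloride channels) at -1.34 (adjusted p = 0.0530). Against T-D the median was -0.59, and between T-D and T-ND it was -0.50 with 12 of 14 lower. In both comparisons edgeR called 0 of the 14, with 5 at an unadjusted p under 0.05 in each, and DESeq2 called 3 and 1. Between T-D and T-ND those with the smallest adjusted p were Bsnd (-0.97, adjusted p = 0.0991) and Foxq1 (-1.12, adjusted p = 0.159), and between PT-D and T-D they were Cldn10 (-1.10, adjusted p = 0.0838) and Cldn19 (-1.03, adjusted p = 0.0936).

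The other genes of the distal convoluted and connecting tubule were mostly not lower. Of 14 genes, 10 were higher and 4 lower in PT-D than in PT-ND. Among them 1 was a DEG, near the share of 4.95% over all genes. That DEG was Trpv5, the calcium channel of these segments (log2FC 1.71, edgeR adjusted p = 0.00170). It had 271, 254 and 185 normalized counts in PT-ND and 894, 669 and 765 in PT-D. Next by adjusted p was Fxyd2, the gamma subunit of the sodium pump, at -0.80 (adjusted p = 0.0391). Against T-ND the list had a median of 0.33 and edgeR called 0 genes, with 5 at an unadjusted p under 0.05 and 1 called by DESeq2, Trpv5. Those with the smallest adjusted p by edgeR were Atp2b1, a calcium pump of the plasma membrane (log2FC 0.40, adjusted p = 0.0674), and Trpv5 (1.24, adjusted p = 0.0737).

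Regulators of the salt cotransporters, such as the WNK kinases and their ubiquitin ligase, were not called between PT-D and PT-ND or between PT-D and T-ND. edgeR called 0 of 11 in both, with 3 and 2 at an unadjusted p under 0.05, and DESeq2 called 0 in both. The medians were -0.10 and 0.10. In the first comparison those with the smallest adjusted p were Hsd11b2, the enzyme that shields the mineralocorticoid receptor from cortisol and corticosterone (log2FC -0.79, adjusted p = 0.106), and Nedd4l, a ubiquitin ligase (0.43, adjusted p = 0.116). In the second they were Cab39l, a scaffold protein of the kinases downstream of WNK (-0.49, adjusted p = 0.0576), and Hsd11b2 (-0.91, adjusted p = 0.108).

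As a description, PT-D had lower values of 8 of 9 transcription factors of the distal nephron compared to T-ND. Of these, 2 were DEGs, beside 1.45% of all genes. Irx1, a factor of the intermediate tubule segments, was at -1.35 (edgeR adjusted p = 0.0235) and Esrrb, an estrogen-related receptor, at -1.25 (adjusted p = 0.0454). Esrrb was also lower in PT-D than in PT-ND (-1.16, adjusted p = 0.0225), and Irx1 was at -0.86 there (adjusted p = 0.0291). Esrrb had 998, 794, 545 and 819 normalized counts in T-ND, 846, 324, 482 and 369 in T-D, 666, 977 and 576 in PT-ND and 463, 317 and 217 in PT-D.

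**Figure D4:**
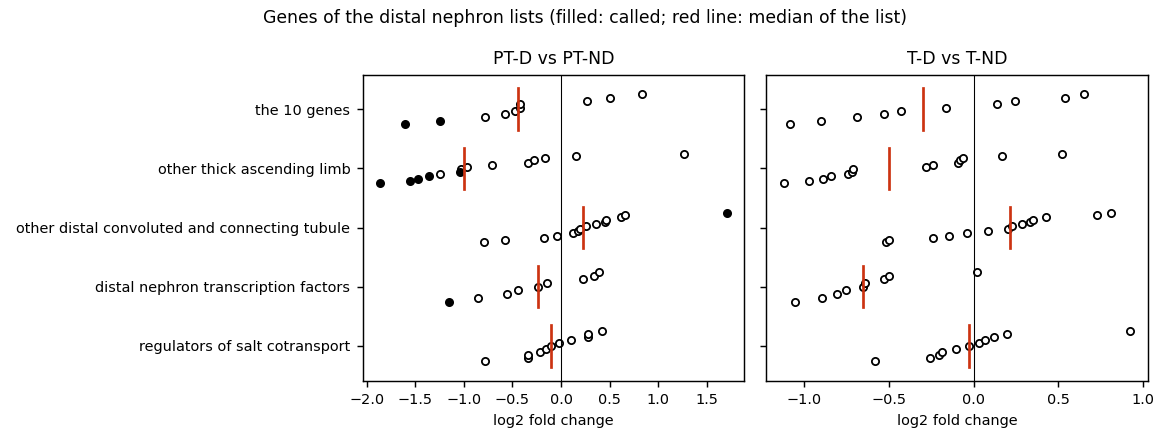
Log2FCs (horizontal axes) of the 10 genes and of 4 lists of distal nephron genes between PT-D and PT-ND and between T-D and T-ND, with 1 point per gene, filled where called, and the median of a list as a red line. Thick ascending limb genes lie mostly below 0 in both, with medians of -1.0 and -0.50, and distal convoluted and connecting tubule genes have medians of 0.23 and 0.21.

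In bulk RNA, fewer cells of a segment and less RNA per cell cannot be told apart. Markers of other cell types moved with the comparisons of PT-D. edgeR called some of them between PT-D and both groups without STZ, and none in the other 3 pairs of groups. Between PT-D and T-D, DESeq2 called Synpo, Cdh5, Kdr, Flt1, Ptprc, Itgam, Pdgfrb and Havcr1 higher and none lower. Median log2FCs there were 0.88 for podocyte, 0.87 for endothelial, 1.07 for leukocyte and 0.68 for stromal markers, beside 0.06 over all genes. Principal cell and blood markers had medians of -0.23 and -1.15 there. Between PT-D and T-ND, where edgeR called 1.45% of all genes, it called 3 of 6 podocyte (Nphs1, Wt1 and Synpo) and 1 of 6 endothelial markers (Cdh5) higher. It also called 1 of 7 leukocyte (Ptprc) and 1 of 10 injured tubule markers (Clu) higher, and no marker lower. DESeq2 called Aqp3, Fxyd4, Slc4a1 and 1 leukocyte marker lower there. Besides the podocyte, endothelial and Clu calls of edgeR, it called Col1a1, Cd44 and 2 leukocyte markers higher. All 6 podocyte markers were higher there, with a median log2FC of 1.08 beside 0.03 over all genes, and their summed normalized counts were 5166 to 7877 in T-ND. Between PT-D and PT-ND, where edgeR called 4.95% of all genes, it called 2 of 6 podocyte, 3 of 6 endothelial and 1 of 7 leukocyte markers higher. It also called 1 of 6 stromal and 4 of 10 injured tubule markers higher. Called lower by edgeR were 1 of 8 principal cell and 1 of 6 intercalated cell markers. Those called higher were Nphs1 and Synpo of the podocyte, Cdh5, Kdr and Flt1 of the endothelium, Adgre1 of the leukocytes, Pdgfrb of the stroma and Havcr1, Lcn2, Krt20 and Clu of injured tubules, and those called lower were Fxyd4 and Slc4a1. Among them Cdh5 was at a log2FC of 1.37, Synpo at 1.15 and Lcn2 at 2.77. Of the leukocyte markers 5 were higher and 2 lower, where Csf1r had a log2FC of -1.02 (edgeR adjusted p = 0.134) and Cd68 one of -0.14. The 4 blood markers tested had a median of 1.54, with 0 called by edgeR or DESeq2 and 3 at an unadjusted p under 0.05. edgeR called 0 of 10 proximal tubule markers in this comparison, whose summed normalized counts were 357391 to 370022 in PT-ND and 232408 to 316932 in PT-D. The sums of the 6 podocyte markers were 6023 to 10725 in PT-ND and 10549 to 13789 in PT-D, those of the endothelial markers 3533 to 6587 and 6934 to 8633, and those of the injured tubule markers 45384 to 46302 and 71591 to 84320. Principal cell markers summed to 13653 to 22816 and 8603 to 15804, intercalated cell markers to 5847 to 6768 and 4078 to 10390, stromal markers to 2383 to 3897 and 2857 to 5431, and leukocyte markers to 1328 to 1911 and 730 to 1698. Only Avpr2, Cd3e and Cd79a had 0 counts in any library among the markers. The part of these cells in the differences of the 10 genes was not tested.

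The genes with the most similar profiles were found by the root mean square difference of log2 CPM (counts scaled to library size), centred on each gene's mean, among 12169 genes over the 14 libraries, as a description. The nearest to Slc12a1 were Pcsk6 (0.23), Gm9800 (0.28) and Sim2 (0.29), and the nearest to Umod were Sim2 (0.27), Ckb (0.29) and Gpx6 (0.29). Casr had Esrrb (0.27), Wscd2 (0.31) and Aqp3 (0.33) as its neighbours. Those of Slc12a3 were Ripor1 (0.26), Gm12940 (0.26) and Slc4a3 (0.27). Kcnk1 had Wfdc15b (0.43), Apela (0.43) and Gal3st1 (0.46). Umod and Slc12a1 differed by 0.35 from each other, while each of them differed from Slc12a3 by more, 0.96 and 0.84. The libraries shared by all genes, with their depth and the differences within groups described above, enter each of these values.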

How the data were processed

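Whole kidney RNA of 14 female mice was sequenced in 4 groups taken from the labels. After trimming, the authors mapped the reads with STAR (genome GRCm39, GENCODE M36) and deposited un-normalized read counts per gene, from un-stranded libraries. Reads on more than 1 gene or mapping to several places were not counted by the authors. Counts per library lay between 16697246 and 28673176, which leaves counting error small beside the spread between mice. Precision is limited by 3 or 4 mice per group.

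Symbols and positions are those of GENCODE M39, which matched 56236 of the 56980 gene IDs, without their version. Genes with 10 counts or fewer over all libraries were left out. Pairs of groups were fitted separately with edgeR 4.0.16 under R 4.3.3 (TMM, quasi-likelihood test, two-sided, Benjamini-Hochberg adjustment over all genes), and the interaction and the common effects of STZ and preterm birth on all 14. A DEG had an adjusted p under 0.05 and a log2 fold change beyond 1 in either direction. Group values are means and SDs of normalized counts. All members are reported in every comparison. From each list of other genes up to 5 DEGs by adjusted p are named, or, where fewer than 2 were called, the 2 with the smallest adjusted p. Profiles were compared on log2 CPM (prior count 2) among genes averaging 50 normalized counts or more.

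The members and lists were chosen with earlier results of these data known. The alternatives were DESeq2 1.42.0, RLE factors, filterByExpr, no filter on low counts, a replicate block, the library-name suffix as a covariate, the adjusted p alone, a joint fit of all libraries, and fits that omitted a single library. The fits were tested on simulated counts with 200 altered genes (log2 fold change 2), of which 94.5% to 99% were found between groups and 62% for the interaction. Promoter sequences are from RefSeq (GRCm38.p6).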

Additional observations from a re-analysis of the deposited data

Results flagged for a closer look

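Among the 10 genes and the genes of the distal nephron lists, 1 library of a group of 4 stood far from the other 3 in 8 of 116 groups tested, against about 1 in 20 by chance. Casr had 335 normalized counts in T-D replicate 1 where the lowest T-D library had 162. In T-D replicate 4, Cldn10 (5103), Ppp1r1a (5487) and Wfdc15b (6303) stood above the other T-D libraries, and Pou3f3 did so in T-D replicate 1 (1669). In T-ND, Egf was low in replicate 2 (14498), Cul3 was low in replicate 4 (2010.1) and Kcnj10 was high in replicate 1 (1439). The interaction of preterm birth and STZ was called by edgeR for 2 of 58 of these genes. That share is no higher than the 4.45% called among all genes, and nothing is read from it. The 2 genes were Fxyd2 (-1.14, edgeR adjusted p = 0.0492) and Tfap2b, a factor of the distal tubule (1.18, adjusted p = 0.0472). Fxyd2 had 40982 to 62107 normalized counts in PT-ND, 23010 to 36475 in PT-D, 38145 to 49060.3 in T-ND and 43781 to 82005 in T-D. Tfap2b had 594 to 638 in T-ND, 274 to 491 in T-D, 328 to 481 in PT-ND and 352 to 726 in PT-D. The causes of these values were not tested.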

How the results depend on the processing

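By DESeq2 the DEGs were 947 between PT-D and T-ND, 655 between PT-D and T-D, 293 between T-D and T-ND, 169 between PT-ND and T-ND, 1645 in the interaction, 395 for the STZ effect and 44 for the preterm effect. With no filter on low counts they were 645, 657, 109 and 83 in the first 4 of these, 292 for the STZ effect and 20 for the preterm effect. The adjusted p alone gave 616 (PT-D vs T-ND), 2881 (PT-D vs PT-ND) and 137 (STZ effect). A joint fit of all libraries gave 396 (PT-D vs T-D) and 58 (T-D vs T-ND), filterByExpr 22 (PT-D vs T-D) and 8 (PT-ND vs T-ND), and the suffix as a covariate 23 (PT-D vs T-D) and 45 (PT-ND vs T-ND). Libraries with the same replicate number were not alike (correlations of -0.285 to 0.299), and the numbers were not taken to pair the mice. The paper states that litter mates of treated mice served as term controls. The labels do not give the litters, so shared litters could not be modelled. A replicate block gave 73 (PT-D vs T-ND), 83 (PT-D vs T-D), 6 (PT-ND vs T-ND), 563 (interaction), 42 (STZ effect) and 0 (preterm effect, where edgeR without the block called 6). Of the 10 genes, 1 was called between PT-D and T-D by DESeq2, with no filter, in the joint fit and with the replicate block (Kcnk1 each time), 1 between T-D and T-ND by DESeq2 (Casr), and 1 for the preterm effect by DESeq2 (Kcnk1). With single libraries left out, the DEGs ranged between PT-D and T-ND from 28 (PT-D replicate 2 left out) to 1070 (T-ND replicate 3 left out), 594 to 1419 between PT-D and PT-ND, 26 to 105 between PT-D and T-D, 2 to 290 between T-D and T-ND, 1 to 96 between PT-ND and T-ND, 76 to 1241 in the interaction, 31 to 470 for the STZ effect and 2 to 8 for the preterm effect. Of the 10 genes they called 1 to 4, 0 to 3, 0 to 1, 0 to 1, 0 to 0, 0 to 1, 0 to 2 and 0 to 0. In the 5 pairs of groups and the STZ effect, directions of single genes turned where the log2 fold change was between -0.27 and 0.27. With single libraries left out it ranged, between PT-D and T-ND, from -0.27 to 0.39 for Calb1, between PT-D and PT-ND from -0.0591 to 0.46 for Calb1, between PT-D and T-D from -0.66 to 0.0467 for Casr, -0.38 to 0.41 for Slc12a1, -0.42 to 0.17 for Trpm6 and -0.66 to 0.0699 for Kcnj1, and between T-D and T-ND from -0.34 to 0.10 for Slc12a3 and -0.00573 to 0.23 for Cldn16. Between PT-ND and T-ND it ranged from -0.22 to 0.0771 for Casr, -0.13 to 0.31 for Trpm6, -0.14 to 0.0453 for Cldn16, -0.38 to 0.11 for Calb1, -0.29 to 0.0445 for Slc12a1 and -0.0784 to 0.11 for Pvalb, and for the STZ effect from -0.17 to 0.10 for Pvalb. The suffix as a covariate turned Slc12a1 to -0.0442 (PT-D vs T-D) and Casr and Cldn16 to 0.00209 and 0.000923 (PT-ND vs T-ND), and the replicate block turned Cldn16 to 0.0136. The cause was not tested. Depth was not the limit for these genes, with at least 121 reads in each library.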
